A study of Mus musculus with 2 samples.

Results

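Mitochondrial steroid hydroxylases are the cytochrome P450 enzymes that cut and hydroxylate steroids inside the mitochondrion, and they work only with a pair of electron carriers. The members were chosen by gene symbol, 3 hydroxylase genes (Cyp11a1, Cyp11b1 and Cyp11b2) and 2 carrier genes (Fdx1 and Fdxr), which makes 5 genes of 55536 annotated ones. They were read in total RNA-seq of adrenal gland from B6CASTF1/J mice, a first-generation cross of inbred strains. Both libraries are labelled female and 4 days old, and the labels name no treatment and no engineered allele. The 2 libraries are replicates of 1 group, so no condition was compared. The labels disagree on the animal behind replicate 2: one text gives it the animal number of replicate 1 and another gives a different number. If both came from 1 animal, the spread between them does not measure differences between animals.

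Steroid synthesis begins when P450scc, the product of Cyp11a1, cuts the side chain of cholesterol to give pregnenolone. Enzymes of the endoplasmic reticulum then carry the product to deoxycorticosterone, which returns to the mitochondrion. There 11-beta-hydroxylase, made from Cyp11b1, forms corticosterone in the zona fasciculata, and aldosterone synthase, made from Cyp11b2, forms aldosterone in the outer zona glomerulosa. Adrenodoxin reductase, from Fdxr, takes electrons from NADPH and passes them to adrenodoxin, the small iron-sulfur protein from Fdx1, which hands them to each hydroxylase in turn.

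The libraries held 31838341 and 32931868 expected counts in replicates 1 and 2, and markers of the cortex and medulla were present in both. The 5 fasciculata markers summed to 518 and 512 TPM, the 8 glomerulosa markers to 329 and 320 TPM, and the 5 medulla markers to 1823 and 2135 TPM, in replicates 1 and 2. The 3 fetal cortex markers summed to 108 and 101 TPM, most of it from Akr1c18 at 90.9 and 84.6 TPM. Of these 3, 2 reached 1 TPM in both replicates, and Pik3c2g stood at 0.56 and 0.43 TPM. TPM is a gene's abundance per length, scaled to the same total in every library. The libraries also carried RNA typical of neighbouring organs, and unequally. The 5 pancreas markers reached a sum of 3611 TPM in replicate 1, against 0.49 TPM in replicate 2, and the 5 kidney markers 86.4 and 8.83 TPM. The 5 liver markers reached 102 and 457 TPM in replicates 1 and 2, and the 5 skeletal muscle markers 304 and 1919 TPM.

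Cyp11b1 and Cyp11b2 are near copies of each other, so how far their reads can be told apart bears on every value given for them. Cyp11b1 (ENSMUSG00000075604.5, chromosome 15, 74834125 to 74841643) and Cyp11b2 (ENSMUSG00000022589.7, chromosome 15, 74851010 to 74856318) lie on the minus strand of mm10 and have 9 exons each. Their coding sequences, of 1503 and 1506 bases in the GENCODE M21 annotation, were identical at 1309 of 1503 aligned bases, or 87.1%. The differences were spread unevenly: exon 1 had 2 differences in 245 coding bases (99.2% identity), and exon 5 had 51 in 152 (66.4% identity). The pair of 60-base stretches with the most differences lay in exon 3, coding bases 523 to 582, and is shown because it is where reads from the paralogs separate most clearly. Capitals mark the 24 positions where they differ.
Cyp11b1, chr15:74839246-74839305, minus strand: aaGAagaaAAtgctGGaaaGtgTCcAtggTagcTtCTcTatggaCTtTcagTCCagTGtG
Cyp11b2, chr15:74853815-74853874, minus strand: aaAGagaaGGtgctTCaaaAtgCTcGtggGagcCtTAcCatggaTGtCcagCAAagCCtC
By contrast, coding bases 26 to 85 of exon 1 were the same in both genes, so a fragment lying wholly there cannot be assigned by sequence.
Cyp11b1, chr15:74841528-74841587, minus strand: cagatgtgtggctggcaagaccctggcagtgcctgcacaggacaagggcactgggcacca
Cyp11b2, chr15:74856147-74856206, minus strand: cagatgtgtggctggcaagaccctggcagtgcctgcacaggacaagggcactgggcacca

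Most of both transcripts was nevertheless distinct. The longest identical run between the coding sequences was 244 bases. Of the 100-base words of the Cyp11b2 transcript, 171 of 1526 (11.2%) also occurred in Cyp11b1 and in no other gene. Of those of Cyp11b1, 357 of 3066 (11.6%) occurred in another gene, either Cyp11b2 or Gml2, whose 3′ end overlaps that of Cyp11b1 on the opposite strand. Shorter words were shared more often, at 19.1% of 50-base and 25.3% of 31-base words for Cyp11b2 and at 18.1% and 22.8% for Cyp11b1. Those of Cyp11b2 occurred in Cyp11b1 only. Those of Cyp11b1 occurred in many other genes besides Cyp11b2 and Gml2, so the percentages of the 2 genes do not measure the same sharing. Gml2 had 0 counts in both libraries. The leading transcripts of Cyp11a1, Fdx1 and Fdxr shared no word of 31, 50 or 100 bases with another gene. The authors' posterior SD, their estimate of the uncertainty in dividing reads, was 33.1 and 27.7 counts for each of Cyp11b1 and Cyp11b2 in replicates 1 and 2. That is small beside 4681 and 3136 counts for Cyp11b2 and 55251 and 59697 counts for Cyp11b1. The SD does not cover differences between ways of quantifying. A second quantification of the same libraries, described below, put 5610 and 3995 counts on Cyp11b2 in replicates 1 and 2. For Cyp11b1 it gave 57479 and 61741 counts. The gap for Cyp11b2 is far larger than the posterior SD. Genes whose leading transcripts shared no word had gaps as well. In replicates 1 and 2, the second quantification gave Fdx1 6289 and 6661 counts, against expected counts of 7853 and 8172. It gave Cyp11a1 57362 and 65868 counts, against 51694 and 59341, and Fdxr 12665 and 13814, against 11772 and 12767. The part of shared sequence in the Cyp11b2 gap was not tested.

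The levels fell into a fixed order in both libraries, from Cyp11a1 through Cyp11b1, Fdx1 and Fdxr to Cyp11b2. Cyp11a1 (ENSMUSG00000032323.13, chromosome 9, 58006411 to 58027023, plus strand) measured 824 TPM in replicate 1 and 912 TPM in replicate 2, a mean of 868 ± 62.5 TPM (SD, n = 2). It ranked 14 and 13 among 22015 nuclear protein-coding genes, the highest of the 5. Cyp11b1 measured 585 and 612 TPM (598 ± 18.6 TPM, SD, n = 2) and ranked 33 and 31. Cyp11b2 was the lowest, with 99.6 TPM in replicate 1, against 64.6 TPM in replicate 2 (82.1 ± 24.8 TPM, SD, n = 2), and ranked 561 and 975. It was also the most variable, with an SD of 30.2% of its mean, against 1.45% to 7.20% for the other 4 genes.

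The carriers stood between the hydroxylases and varied least. Fdx1 (ENSMUSG00000032051.9, chromosome 9, 51943306 to 51963556, minus strand) measured 304 TPM in replicate 1 and 298 TPM in replicate 2, or 301 ± 4.81 TPM (SD, n = 2). Fdxr (ENSMUSG00000018861.8, chromosome 11, 115268024 to 115277050, minus strand) measured 225 and 229 TPM, or 227 ± 3.28 TPM (SD, n = 2). The ranges of neighbours in the order did not overlap for any of the 5 genes. Together they summed to 2038 and 2115 TPM, or 0.204% and 0.212% of all TPM.

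**Figure D1:**
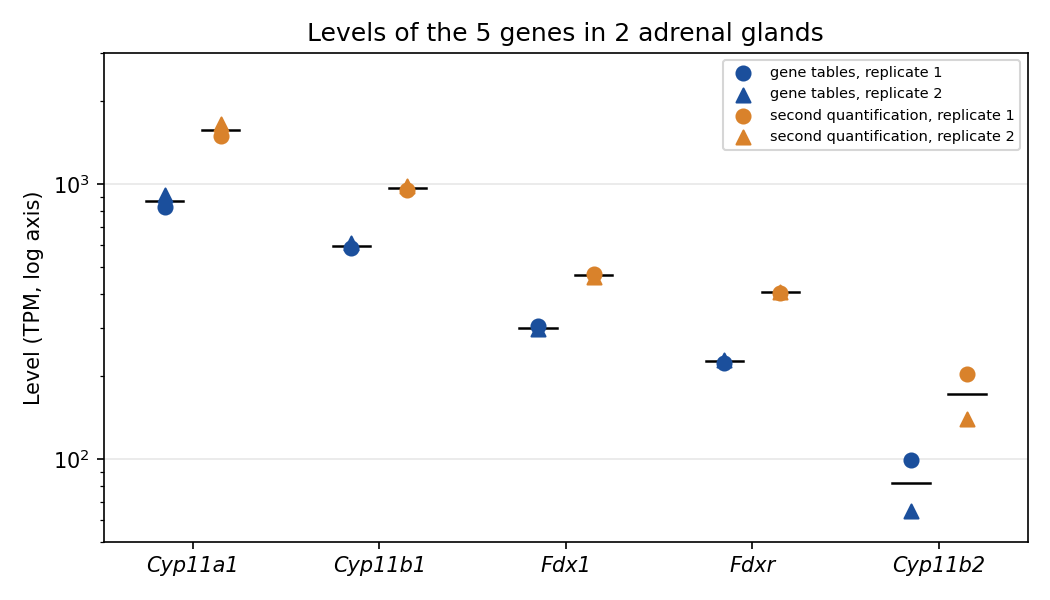
Levels in TPM on a log axis of the 5 genes, ordered from high to low, with circles for replicate 1, triangles for replicate 2 and black bars for the mean of 2. Blue points are the gene tables and orange points the second quantification; the order of the genes is the same in both, and Cyp11b2 has the widest gap between the replicates.

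The second quantification of the same libraries kept this order. It is a deposited table made from the read files, whose TPM over genes with at least 100 counts were higher than in the gene tables by a median log2 of 0.87 and 0.85 in replicates 1 and 2. Cyp11a1 measured 1493 and 1650 TPM there, and Cyp11b1 956 and 988 TPM. Fdx1 measured 472 and 461 TPM and Fdxr 404 and 404 TPM. Cyp11b2 measured 204 and 140 TPM. Ranks among nuclear protein-coding genes shifted, to 23 and 17 for Cyp11a1 and 69 and 65 for Cyp11b1. They were 184 and 190 for Fdx1, 218 and 228 for Fdxr, and 523 and 844 for Cyp11b2. Of the 5 genes, the log2 ratio of the second quantification over the gene tables was largest for Cyp11b2, at 1.04 and 1.12, and smallest for Fdx1, at 0.63 in both replicates.

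Fixed ratios set the genes against each other within each library, on the log2 scale of TPM. Cyp11b1 exceeded Cyp11b2 by 2.55 in replicate 1 and 3.24 in replicate 2, which is 5.87-fold and 9.47-fold, and the second quantification gave 4.68-fold and 7.06-fold. Cyp11b2 thus made up 14.5% and 9.55% of the summed TPM of the pair, or 17.6% and 12.4% in the second quantification. The pair summed to 685 and 676 TPM. These values use the GENCODE length of Cyp11b1, and a shorter RefSeq length is described next.

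Cyp11a1 exceeded Cyp11b1 by a log2 ratio of 0.53 ± 0.06 (SD, n = 2), or 1.41-fold and 1.49-fold, although Cyp11b1 had more counts, because its annotated transcript is longer. This value rests on where Cyp11b1 ends. The RefSeq record of the gene stops 767 bases short of the GENCODE end, and dividing the same counts by that shorter length would put Cyp11b1 at 781 and 816 TPM. The ratio would then be 0.12 ± 0.06 (SD, n = 2), still in favour of Cyp11a1 in both replicates. The shorter length would also raise Cyp11b1 over Cyp11b2, the sum of the pair and the summed hydroxylases over Fdx1. It would lower the share of Cyp11b2 in the pair. Those values were not recomputed.

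The summed hydroxylases exceeded their direct electron donor, Fdx1, by a log2 ratio of 2.36 ± 0.08 (SD, n = 2), or 4.95-fold and 5.34-fold in replicates 1 and 2. Fdx1 in turn exceeded the reductase Fdxr by 0.41 ± 0.04 (SD, n = 2), or 1.36-fold and 1.30-fold, and by 1.17-fold and 1.14-fold in the second quantification. An exact permutation of signs over 2 replicates cannot go below a two-sided p of 0.5, so these ratios stand with their spread and no p-value.

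One transcript carried most of each gene. Cyp11b1 and Cyp11b2 have 1 annotated transcript each. Of 4 transcripts of Cyp11a1, the coding transcript Cyp11a1-201, with 9 exons, held 97.2% and 97.5% of the gene's TPM in replicates 1 and 2. Cyp11a1-204, which keeps an intron, held 2.06% and 2.11%. It rested on 1747 and 2043 counts and stood at 1.83% in both replicates of the second quantification. Cyp11a1-202, which starts upstream at 58006411, held 0.101% and 0.144% of the TPM on 11.2 and 18.3 counts. Cyp11a1-203 had 123 and 49.6 counts in the gene tables' transcript file and 0 in the second quantification, so its presence depends on the quantification.

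Fdx1 and Fdxr had more of their RNA in minor forms. Fdx1-201, of 875 bases, held 96.2% and 95.1% of the TPM of Fdx1. The longer coding transcript Fdx1-202, of 2759 bases and with a different end, held 3.34% in replicate 1 and 4.62% in replicate 2, or 4.59% and 5.99% in the second quantification. Fdxr-201, with 12 exons, held 87.1% and 91.1% of the TPM of Fdxr. The other 3 Fdxr transcripts are annotated as processed transcripts with no reading frame, and each held between 1.69% and 5.90% in the replicates. The share of Fdxr-201 was higher in replicate 2 in both quantifications, at 87.4% and 92.4% in the second.

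**Figure D2:**
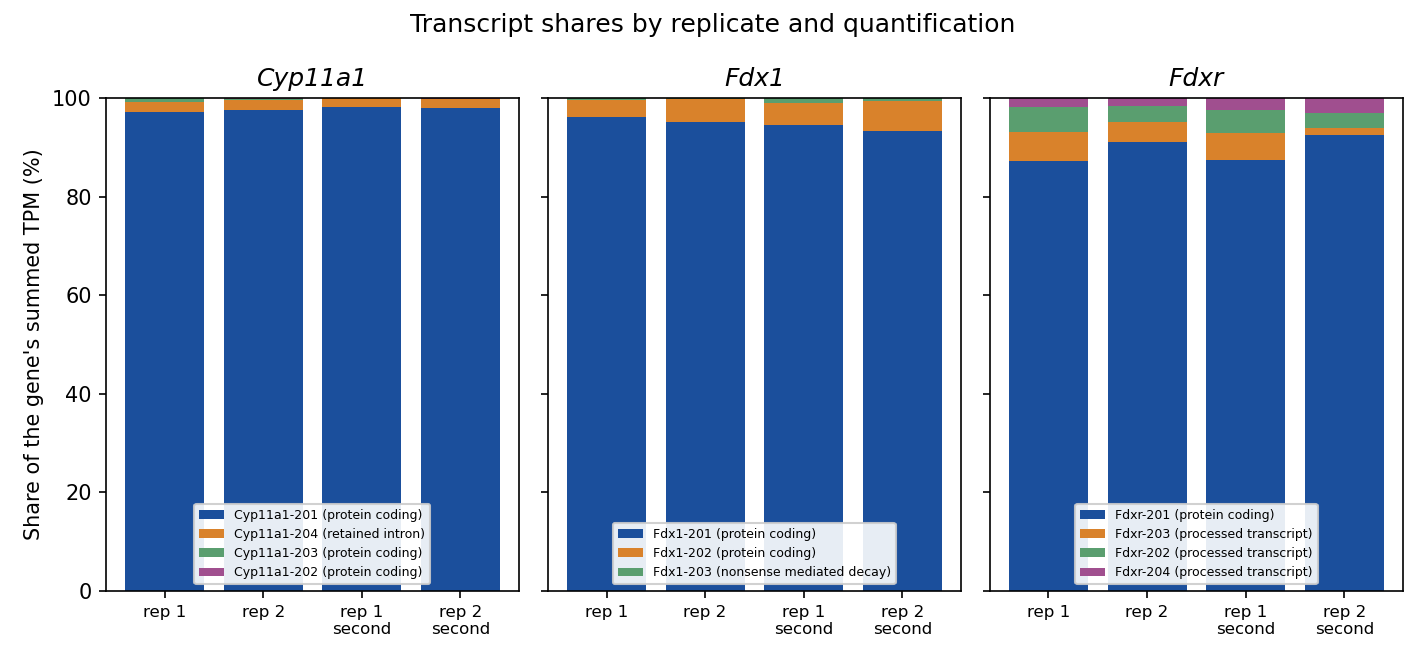
Share of each annotated transcript in the summed TPM of its gene, in percent, for Cyp11a1, Fdx1 and Fdxr, with a bar for each replicate in the gene tables' transcript file and in the second quantification. The blue leading transcript holds over 87% of every bar, and Fdxr has the largest remainder.

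Between the libraries, Cyp11b2 was the member that differed. Differences are log2 ratios of replicate 2 over replicate 1 in counts scaled by TMM, a scaling that centres most genes, and a gene was called when the ratio reached 0.5 in size. With 1 library on each side this rule goes by size alone, without a test, and the intervals cover counting error only. Cyp11b2 had 3136 counts in replicate 2 and 4681 in replicate 1, a log2 ratio of -0.58 (95% interval -0.65 to -0.52), so it was 1.50-fold higher in replicate 1. The second quantification put the ratio at -0.50, at the edge of the rule.

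The other 4 genes lay close to the centre and slightly higher in replicate 2. The log2 ratio was 0.20 (0.18 to 0.21) for Cyp11a1, 0.11 (0.09 to 0.12) for Cyp11b1, 0.11 (0.08 to 0.15) for Fdxr and 0.05 (0.01 to 0.10) for Fdx1. Thus 1 of 5 members was called, against 6.79% of the 13735 genes with a mean of at least 100 counts, of which 3.7% were lower in replicate 2, as Cyp11b2 was, and 3.09% higher. The median size of the log2 ratio was 0.11 over the members and 0.11 over all 13735 genes. Well-counted genes differed less: of 880 genes with a mean of at least 5000 counts, 2.39% were called and the median size was 0.08. The 4 members other than Cyp11b2 are among these 880. Of the 13735 genes, 3.08% had a lower ratio than Cyp11b2. Under TMM, all 5 counting intervals left out 0, as did those of 41.1% of genes. With spike-in scaling, Cyp11b2 stood at -0.66 and Fdx1 changed sign, to -0.03. Cyp11a1 then stood at 0.12 and Cyp11b1 and Fdxr at 0.03 each, so their small excess in replicate 2 depends on the scaling.

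**Figure D3:**
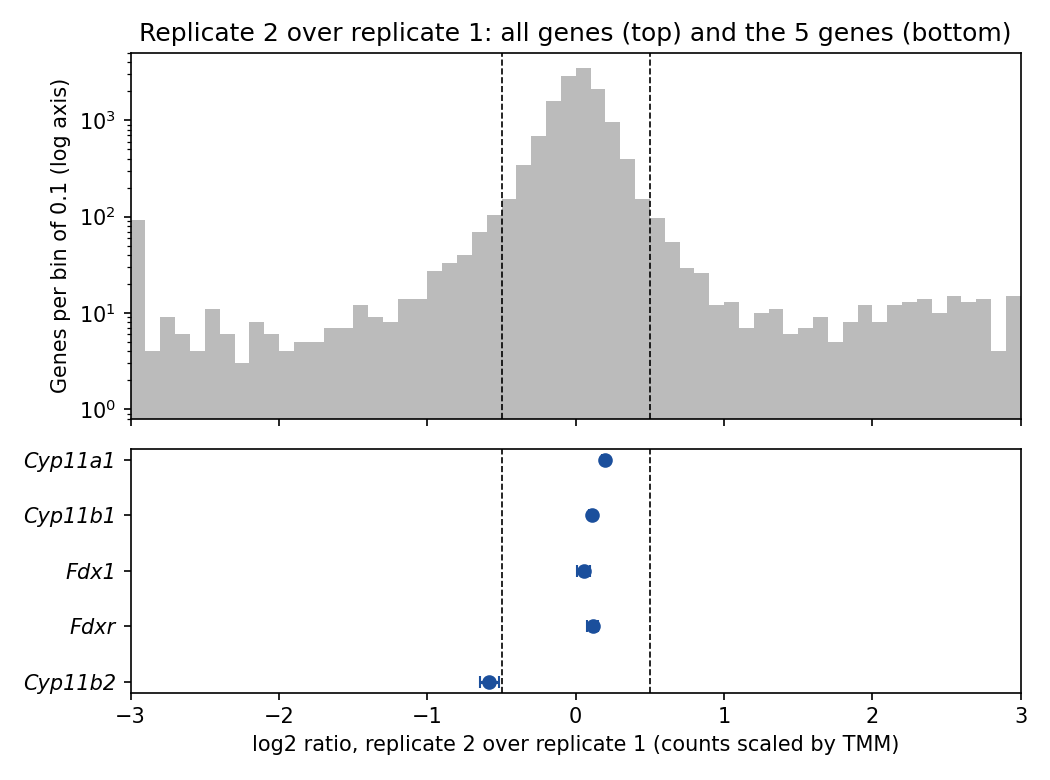
Log2 ratio of replicate 2 over replicate 1 in counts scaled by TMM. The upper panel shows the number of genes per bin of 0.1 on a log axis for 13735 genes, with ratios beyond the axis in the end bins; the lower panel shows the 5 genes with 95% counting intervals, and dashed lines mark the size of 0.5 that Cyp11b2 passes.

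The other genes of the glomerulosa did not share the ratio of Cyp11b2. In bulk tissue, fewer cells of a type and less RNA per cell cannot be told apart. Of 8 markers of that layer, 0 were called in either direction and, under TMM, 4 were higher in each replicate. Their median log2 ratio was 0.02, as it was over all 13735 genes. Dab2, an endocytic adaptor and the highest of them at 176 and 158 TPM in replicates 1 and 2, had 15239 and 15020 counts and a count ratio of -0.02 (-0.06 to 0.01); its TPM differed more than its counts. Agtr1a, a gene of the angiotensin II receptor whose signal drives aldosterone synthesis, measured 54.0 and 56.7 TPM, a ratio of 0.06 (-0.01 to 0.13). Agtr1b, the other angiotensin II receptor gene listed, measured 3.66 and 3.36 TPM, a ratio of -0.11 (-0.39 to 0.16). Kcnk9, a potassium channel that sets the membrane potential of these cells, had -0.08, the calcium channel gene Cacna1h 0.15 and the calcium sensor gene Vsnl1 -0.11. The signalling genes Wnt4 and Shh were on the other side, at 0.35 and 0.42.

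Markers of the fasciculata were spread around Cyp11b1. The 5 of them had a median ratio of 0.07 and 0 were called. Mc2r, the corticotropin receptor, had a ratio of 0.14, and Abcb1b, a multidrug transporter, 0.16. Akr1b7, an aldo-keto reductase, had the lowest, at -0.26 (-0.34 to -0.19).

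**Figure D4:**
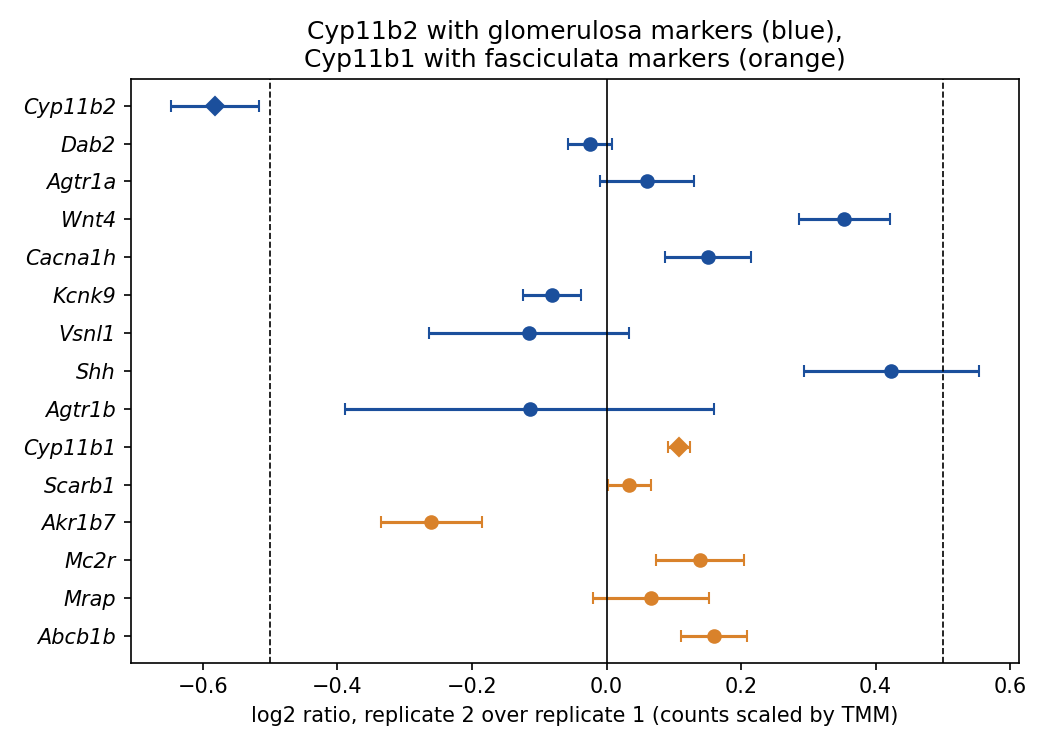
Log2 ratio of replicate 2 over replicate 1, with 95% counting intervals, for Cyp11b2 and 8 glomerulosa markers in blue and for Cyp11b1 and 5 fasciculata markers in orange; diamonds mark Cyp11b2 and Cyp11b1 and dashed lines a size of 0.5. Cyp11b2 at -0.58 lies below all 8 glomerulosa markers, which run from -0.11 to 0.42.

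Transcription factors known to act on steroid enzyme genes were read beside these values. Nr5a1, steroidogenic factor 1, a nuclear receptor that acts on many steroid enzyme genes, measured 154 and 161 TPM in replicates 1 and 2, a ratio of 0.11. Nr4a1, an immediate early nuclear receptor known to activate the human aldosterone synthase gene, measured 23.0 and 50.8 TPM, a ratio of 1.24 (1.15 to 1.32), opposite in direction to Cyp11b2. It was the 1 called gene of 7, all of which were higher in replicate 2 under TMM. Atf1 had the lowest ratio of the 7, 0.05. Its deposited TPM was lower in replicate 2, at 30.8 and 29.6 TPM in replicates 1 and 2. The relatives of Nr4a1, Nr4a2 and Nr4a3, had ratios of 0.26 and 0.23, and Nr0b1, a repressor of Nr5a1, 0.23.

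RNA of other tissues also differed between the libraries. The 5 medulla markers were all higher in replicate 2, with a median ratio of 0.29, and 0 were called. Of the pancreas markers 5 of 5, and of the kidney markers 4 of 4 with enough counts, were called higher in replicate 1, the side of Cyp11b2. The 5 liver and 5 skeletal muscle markers were called higher in replicate 2. Their part in the difference of Cyp11b2 was not tested. When 31 digestive enzyme and islet genes and the mitochondrial genome were taken out of the total, Cyp11b2 measured 111 and 72.3 TPM in replicates 1 and 2. That is a log2 ratio of -0.62, against -0.63 in deposited TPM. This step only rescales each library, and 89.4% and 89.3% of TPM were kept in replicates 1 and 2. The ratio could therefore barely move, and the step does not test the part of other tissues.

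Fdx1 far exceeded the other mitochondrial ferredoxin gene. Fdx1l, also called Fdx2, whose protein serves iron-sulfur cluster assembly, measured 11.8 and 14.1 TPM in replicates 1 and 2. Other P450 genes that draw on the same carriers were low. Cyp27a1, the sterol 27-hydroxylase, measured 2.21 and 2.39 TPM and Cyp27b1, which activates vitamin D in the kidney, 0.42 and 0.39 TPM on 30 and 11 counts. Cyp24a1, which inactivates vitamin D, had 115 counts in replicate 1 and 7 in replicate 2, a log2 ratio of -3.95 (-5.39 to -2.95). The median ratio of the kidney markers was -3.35, on the same side. The 3 hydroxylases studied here therefore held nearly all of the mitochondrial P450 RNA that the lists cover, at 1509 and 1588 TPM, against 3.71 and 2.84 TPM for these other 3 genes.

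Genes that equip the electron chain were present at lower levels than the carriers. All 9 genes listed for mitochondrial iron-sulfur cluster assembly, which builds the cluster of adrenodoxin, exceeded 1 TPM in both replicates and 0 were called. Hspa9, the mitochondrial chaperone, measured 160 and 162 TPM, the scaffold gene Iscu 149 and 159 TPM, and the glutaredoxin gene Glrx5 47.7 and 52.2 TPM. The desulfurase gene Nfs1 measured 24.2 and 27.0 TPM. The median ratio of the 9 genes was 0.13.

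Of 6 genes that supply mitochondrial NADPH, 5 exceeded 1 TPM in both replicates. Idh2, the mitochondrial isocitrate dehydrogenase, led with 103 and 116 TPM, followed by the glutamate dehydrogenase gene Glud1 at 78.6 and 70.1 TPM. The NAD kinase gene Nadk2 measured 32.4 and 32.5 TPM and the malic enzyme gene Me3 5.51 and 4.35 TPM. Aldh1l2, of the folate pathway, was the 1 called gene of the 6, at 1.39 and 0.78 TPM, a ratio of -0.96 (-1.30 to -0.64).

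Nnt, the transhydrogenase that makes NADPH from the proton gradient and is disrupted in some C57BL/6J stocks, stands in the annotation as a pair of overlapping gene records, which share reads. Together they measured 42.3 and 45.4 TPM in replicates 1 and 2. The gene tables put 37.7 and 42.2 TPM on the first record and 4.68 and 3.13 TPM on the other. The second quantification put 31.1 and 33.7 TPM on the first and 40.3 and 42.2 TPM on the other, so only the sum can be read.

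Genes of the other steps of the pathway bracketed the hydroxylases. Hsd3b1, which follows Cyp11a1, stood at 2214 and 2570 TPM and Cyp21a1, which makes the substrate of the Cyp11b enzymes, at 1417 and 1517 TPM, both above Cyp11a1. Star, which brings cholesterol to Cyp11a1, measured 799 and 833 TPM. Por, the reductase that serves the P450s of the endoplasmic reticulum, measured 59.8 and 63.4 TPM, below its mitochondrial counterpart Fdxr in both replicates. Under TMM, all 7 of these genes with enough counts were higher in replicate 2, with a median ratio of 0.12, and 0 were called. The lowest of these ratios was 0.05, for Hsd3b6, and the median over all 13735 genes was 0.02. The 4 members other than Cyp11b2 lay on the same side under TMM, but Fdx1 changed sign under spike-in scaling and in deposited TPM.

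**Figure D5:**
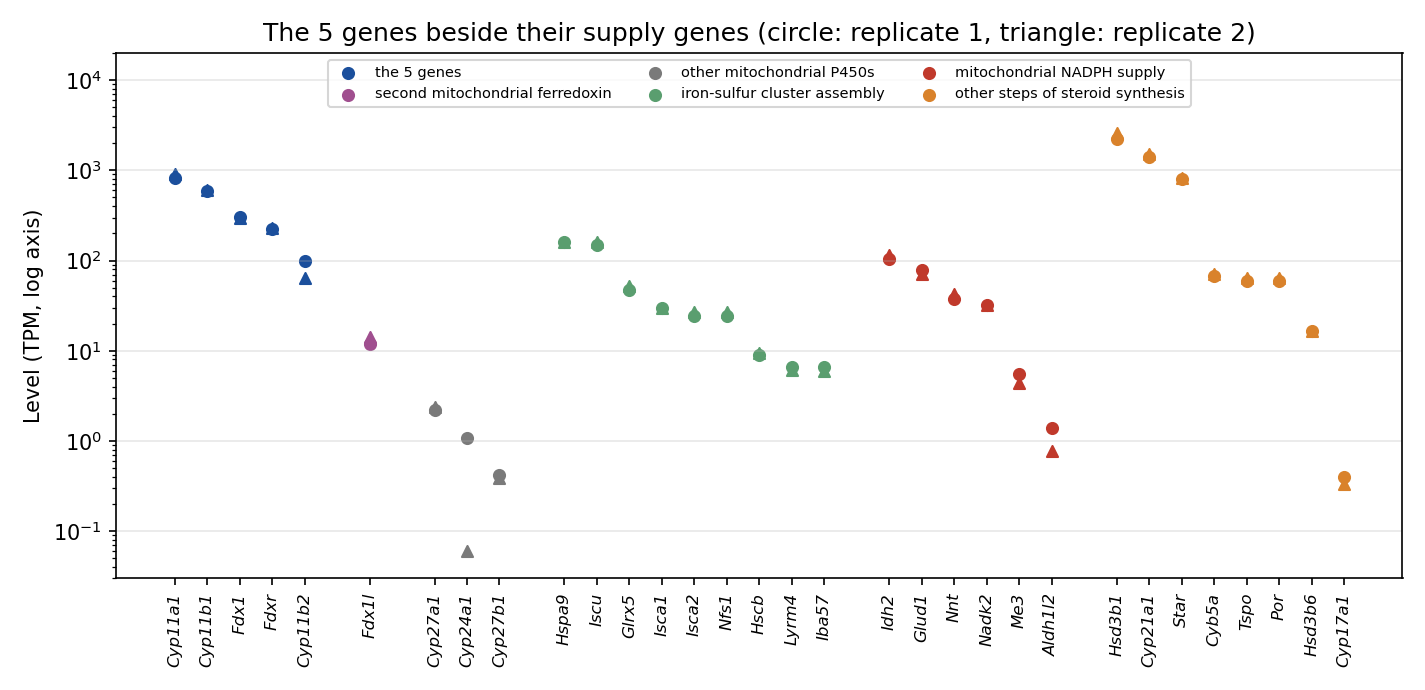
Levels in TPM on a log axis of the 5 genes and of the fixed lists around them, with circles for replicate 1 and triangles for replicate 2 and a colour for each list. Cyp11a1, Cyp11b1, Fdx1 and Fdxr lie above all iron-sulfur, NADPH and other mitochondrial P450 genes drawn. Hspa9, Iscu and Idh2 exceed Cyp11b2 in both replicates. Cyp24a1, Aldh1l2 and Cyp11b2 show visible gaps between the replicates.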

How the data were processed

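The 2 total RNA-seq libraries of adrenal gland, made from 300 ng of RNA each per the labels, were analysed as 1 group. Per the notes deposited with the files, the build was mm10 and the annotation M21. The deposited gene tables give an expected count and TPM made from transcriptome alignments, in columns as RSEM writes them. The matching deposited transcript tables also give each transcript's percent of its gene. The authors' posterior SD and interval bounds were treated as a score. The second quantification is a deposited table of estimated counts and TPM per transcript, made from the reads and here summed to genes. Aligner and quantifier: not given in the sources used here. Reads of a hybrid were assigned with a reference of 1 parental strain; the effect was not tested.

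Expected counts were rounded and scaled by TMM (factors 1.02 and 0.985, edgeR 4.0.16) over 55536 annotated genes, with a prior of 0.5 counts; DESeq2 1.42.0 size factors and 96 spike-ins were alternatives. The second quantification was scaled to a median log2 ratio of 0. Intervals are 95% exact (Clopper-Pearson). A gene with 0 counts may hold a share of up to 3 counts, or 9.42e-06% and 9.11e-06% in replicates 1 and 2; this limit and the intervals cover counting error only. Markers of other cell types served as checks. Ratios between genes used a pseudocount of 0.01 TPM. Shared words were searched on both strands of all M21 transcripts. The log2 ratio between replicates and its interval were tested on counts simulated with counting error only. The other steps were not tested in this way. Python 3.11.15, scipy 1.17.1 and R 4.3.3 were used.

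All 5 members are named, and any gene of the 14 lists could be. A further gene of iron-sulfur cluster assembly was left out of its list and is not reported here. The members and lists were chosen with earlier results of these data known.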

Additional observations from a re-analysis of the deposited data

How the results depend on the processing

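No paired analysis was possible because there is 1 group. The number of members called was 1 under DESeq2 size factors, spike-in scaling, deposited TPM and the second quantification. The share of all genes called was 6.81%, 7.03%, 7.84% and 7.29% under these settings, in that order. With no filter on low counts 1 member was called, against 36.9% of 29190 genes. At a log2 size of 1 the number was 0, and the share of all genes at that size is not given here. It was 5 where the TMM counting interval left out 0, against 41.1% of genes, an alternative added after seeing the data. In the second quantification the log2 ratio of Cyp11a1 over Cyp11b1 was 0.69, that of Fdx1 over Fdxr 0.21 and that of the summed hydroxylases over Fdx1 2.54, each moved by more than the spread between replicates and still above 0; the first and the last were larger than in the gene tables and that of Fdx1 over Fdxr smaller. The cause was not tested. With the RefSeq end of Cyp11b1, added after seeing the data, Cyp11a1 over Cyp11b1 was 0.12, since a shorter length raises TPM. Posterior mean TPM and a pseudocount of 1 TPM moved none of the 4 ratios between genes by more than that spread. Without each replicate in turn, the 4 ratios ran from 2.55 to 3.24 for Cyp11b1 over Cyp11b2, 0.49 to 0.58 for Cyp11a1 over Cyp11b1, 0.38 to 0.44 for Fdx1 over Fdxr and 2.31 to 2.42 for the summed hydroxylases over Fdx1. Of the replicate ratios, Fdx1 changed sign under spike-in scaling and in deposited TPM, both at -0.03. Depth does not limit the 5 genes, but does limit Cyp11a1-202 and the P450 genes under 100 counts.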

Other observations

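By level alone, the nuclear protein-coding genes nearest to the members over the 2 libraries were ones of other kinds. Cyp11a1 was nearest to Sparc, a matrix protein gene, at 821 and 908 TPM in replicates 1 and 2, a distance of 0.0079 on the log2 scale. Cyp11b1 was nearest to Ppia, a prolyl isomerase gene, at 605 and 622 TPM. Cyp11b2 was nearest to the lactate dehydrogenase gene Ldhb at 91.6 and 63.8 TPM, and then to the protease gene Ctsl at 98.1 and 71.3 TPM. Fdx1 was nearest to Cfl1, an actin-binding gene, at 307 and 291 TPM, and Fdxr to the ribosomal protein gene Rps13 at 227 and 233 TPM. With 2 libraries such nearness is a description of level.

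The RefSeq promoter table (GRCm38.p6) held 4 windows, from 250 bases before to 50 after a start, for 3 of the 5 members, Cyp11a1, Fdx1 and Fdxr. The letters AAGGTCA, the core bound by the Nr5a1 and Nr4a1 proteins, and TATAAA were searched on both strands and matched in 0 of the 4 windows, against 4.72% and 13.6% of 32851 windows of all genes. TGACG, the core of the cAMP response element, matched in 1 of the 4, that of a RefSeq start of Cyp11a1 at 57998024 on chromosome 9, which lies upstream of the whole GENCODE gene, against 20.8% of all windows. Other spellings of these elements were not searched.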
